A study of Mus musculus with 44 samples.

Results

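The 10 genes studied here mark the 2 principal neurons of the cerebellar cortex. They are 10 of the 54446 gene identifiers in the table and were followed across 28 RNA-seq libraries of mouse brain. They were chosen by name and by the cell that is known for each: Pcp2, Calb1, Car8, Itpr1 and Ppp1r17 for Purkinje cells, and Cbln1, Cbln3, Zic1, En2 and Barhl2 for granule cells and their lineage. The brains came from C57BL/6 male mice of the National Institute on Aging colony and fall into 4 groups: 12 months of age on a control diet (CD, n = 5), 12 months after one week of a ketogenic diet (KD, n = 7), 26 months on CD (n = 8) and 26 months on a cyclic KD (n = 8), in which KD and CD alternated by the week from 12 months on and tissue was taken in a week of CD. No mouse carried a transgene or a deletion, and both diets were fed ad libitum. The tissue is given as whole brain, and neither a dissection, a batch nor a cage is stated. Each library is taken as 1 mouse, and the total counts per brain library ran from 7447742 to 12744415.

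The cerebellum coordinates movement. Its granule cells are small, very numerous excitatory neurons that send parallel fibres to the dendrites of Purkinje cells, and Purkinje cells are the only output of the cerebellar cortex. At the parallel fibre synapse, granule cells release cerebellins, which bridge the axon and the Purkinje dendrite. Inside the Purkinje cell, inositol trisphosphate opens the calcium channel Itpr1 on the endoplasmic reticulum.

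On the genome build GRCm38, with the gene models of GENCODE vM21, all 10 genes are protein coding. Of the Purkinje cell genes, Pcp2, a modulator of G protein signalling, lies at chr8:3623371-3625545 on the minus strand and Calb1, the calcium buffer calbindin, at chr4:15881264-15908064 on the plus strand. Car8, a carbonic anhydrase without enzyme activity that binds Itpr1, lies at chr4:8143362-8239041 on the minus strand. Itpr1 itself lies at chr6:108213096-108551109 on the plus strand, and Ppp1r17, an inhibitor of protein phosphatases, at chr6:56017497-56032689 on the plus strand. Of the granule cell genes, the secreted cerebellins Cbln1 and Cbln3 lie at chr8:87468405-87472609 and chr14:55878913-55884392, both on the minus strand. The transcription factors are Zic1 at chr9:91358058-91365810 on the minus strand, En2 at chr5:28165694-28172166 on the plus strand and Barhl2 at chr5:106452523-106458166 on the minus strand. Exons of Pcp2 overlap Pet100, exons of Itpr1 overlap Gm44040 and Gm44101, and exons of Zic1 overlap Zic4, each on the opposite strand. The sources used here do not say whether reads were counted by strand, so counts of these 3 genes may hold reads of their partners.

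The promoters of Pcp2 and Cbln3 are shown, 1 gene of each cell type that is known mainly from that cell and whose promoter sequence was available. The sequences are from RefSeq (GRCm38.p6), run 5′ to 3′ on the minus strand and cover 250 bases before to 50 bases after the annotated start. The windows are chr8:3625498-3625797 for Pcp2 and chr14:55884207-55884506 for Cbln3, with starts 2 and 136 bases from those of GENCODE. Capitals mark the letters AGGTCA, the half-site bound by orphan nuclear receptors such as the Purkinje cell factor Rora, and CANNTG, the E-box of basic helix-loop-helix factors such as the granule cell factor Neurod1.
Pcp2: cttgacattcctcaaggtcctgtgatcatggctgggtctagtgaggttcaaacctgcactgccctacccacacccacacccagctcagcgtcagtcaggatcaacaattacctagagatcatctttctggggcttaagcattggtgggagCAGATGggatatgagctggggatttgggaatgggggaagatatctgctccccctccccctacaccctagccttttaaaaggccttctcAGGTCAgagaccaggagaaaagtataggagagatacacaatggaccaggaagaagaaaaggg
Cbln3: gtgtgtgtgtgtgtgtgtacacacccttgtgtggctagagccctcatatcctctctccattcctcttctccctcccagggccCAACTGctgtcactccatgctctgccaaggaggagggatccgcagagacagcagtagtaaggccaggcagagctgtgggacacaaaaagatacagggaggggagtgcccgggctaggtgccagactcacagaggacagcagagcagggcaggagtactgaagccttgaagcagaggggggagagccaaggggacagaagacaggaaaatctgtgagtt

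Both strands were searched, and matches to the 3 motifs do not overlap one another in these windows. The promoter table held 4 of the 10 genes: Pcp2, Cbln3, Zic1 and Barhl2. It listed 4 promoters for Pcp2, of which only the 1 shown is described, and 1 for each of the others. AGGTCA occurred in the Pcp2 window alone, once, against 16.3% of all 32851 promoter windows. CANNTG occurred once each in Pcp2, Cbln3 and Zic1 and 3 times in Barhl2, against 72.3% of all windows. TAATTA, the third motif searched and a core that many homeodomain factors recognise, was in none of the 4, against 5.29% of all. These matches are descriptions of letters and not of binding.

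Before any comparison of diets or ages, the levels of the 10 genes showed that the 28 brain libraries are of 2 kinds. Gabra6, the GABA receptor subunit that granule cells alone are known for and that is not one of the 10 genes, stood at 59.3 to 312 CPM in 15 libraries and at 0.0903 to 8.97 CPM in the other 13, with nothing between (CPM are counts per 1000000 counts of the library after TMM scaling). The boundary was set at this widest gap after the values were seen, so the 15 and 13 libraries are not groups of the study and are described by their ranges, with no test. Each group of mice held both kinds. The 13 low libraries were CD replicates 13 and 16 and KD replicates 2, 8 and 17 at 12 months, and CD replicates 3, 4, 6 and 7 and KD replicates 10, 12 and 15 and the KD library titled Br_26_KD_168 at 26 months. In whole-brain tissue both cell types should be present, so for these 13 libraries the defining markers of granule cells were near 0 against the label. In bulk RNA, fewer cells of a type and less RNA per cell cannot be told apart.

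Of the 10 genes, 9 did not overlap between the 15 and the 13 libraries, each of them higher in the 15. Of all 22079 genes tested, 1.65% were higher without overlap and 0.0544% lower. The boundary rests on a granule cell gene that closely followed members such as Cbln3 (r = 0.995 over the 28 libraries, group means removed). It was also set after the values were seen, so 9 of 10 is a description and not independent support. For 6 of the 10, Pcp2, Car8, Ppp1r17, Cbln1, Cbln3 and Barhl2, the widest gap in their own levels split the libraries in the same way as Gabra6. The tenth gene, Itpr1, overlapped.

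**Figure D1:**
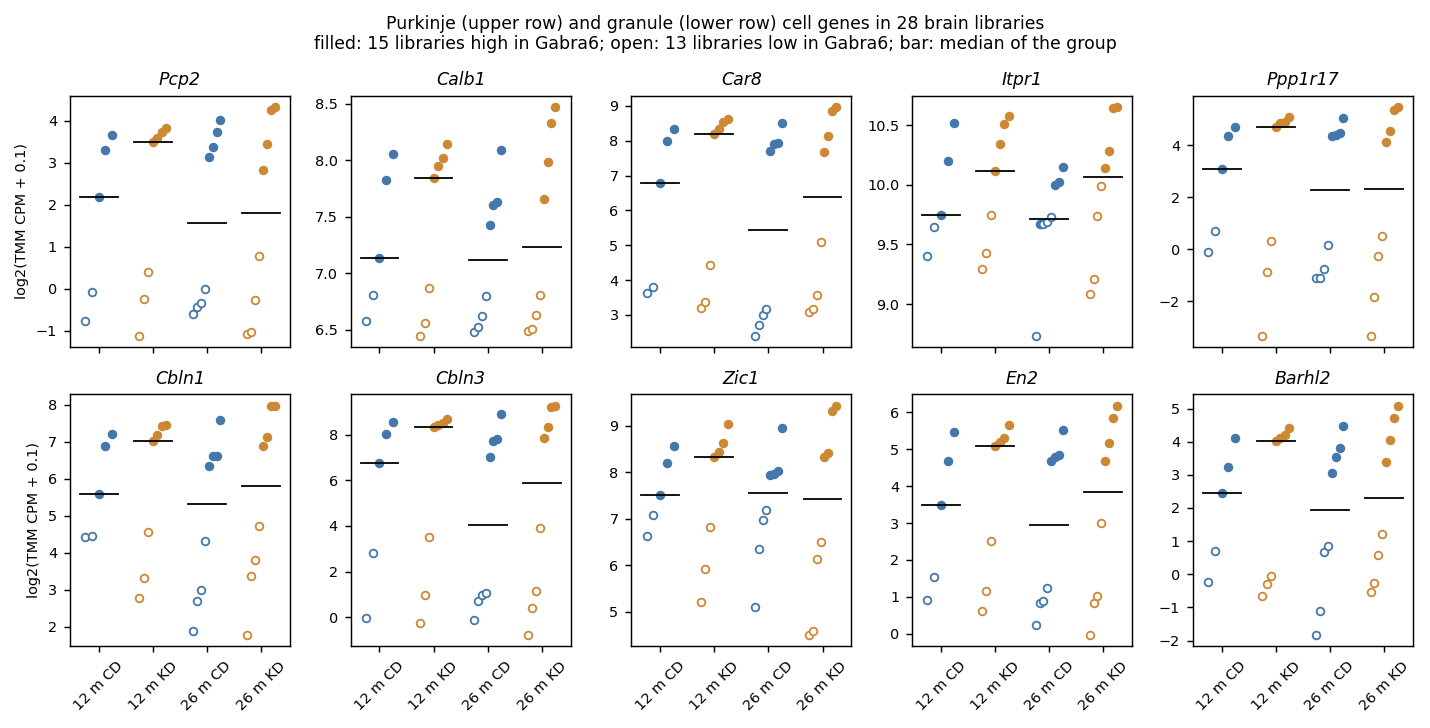
Level of each gene in the 28 brain libraries, as log2(TMM CPM + 0.1) on the y axis, by group on the x axis (age in months and diet, with blue for CD and orange for KD). Filled points are the 15 libraries high in Gabra6, open points the 13 low, and bars are group medians; every group holds both kinds, and only for Itpr1 do their levels overlap across the 28 libraries.

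Among the Purkinje cell genes, Pcp2 had the lowest median per kb of exon in the 15 libraries. At 12 months on CD it stood at 9.79, 12.6, 4.45, 0.487 and 0.844 CPM in replicates 1, 4, 7, 13 and 16. The lowest, median and highest levels were 0.359, 11.2 and 14.2 CPM at 12 months on KD, 0.565, 4.83 and 16.1 CPM at 26 months on CD, and 0.373, 4.31 and 20.04 CPM at 26 months on KD. Within each group the libraries formed an upper and a lower cluster, and the ranges of the 4 groups overlapped almost wholly. Over all brains, Pcp2 ran from 4.45 to 20.04 CPM in the 15 libraries and from 0.359 to 1.61 CPM in the 13.

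Car8 stood at a higher level. The 5 CD brains of 12 months held 257, 326, 109.9, 12.2 and 13.98 CPM in the order of replicates 1, 4, 7, 13 and 16. The lowest, median and highest were 8.997, 295 and 395 CPM at 12 months on KD, 5.17, 109 and 363 CPM at 26 months on CD, and 8.42, 119.9 and 501 CPM at 26 months on KD. The lowest of the 15 libraries, CD replicate 7 of 12 months at 109.9 CPM, was 3.23 times the highest of the 13, KD replicate 15 of 26 months at 34.0 CPM.

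Ppp1r17 was the Purkinje cell gene nearest to absence in the 13 libraries. It had 0 counts in KD replicate 17 of 12 months and KD replicate 10 of 26 months, and at most 1.54 CPM in the others of the 13, against 8.29 to 44.0 CPM in the 15. Its highest low library, CD replicate 13 of 12 months, lay 5.38 times under its lowest high library. A count of 0 allows up to 3 counts per library, and this covers counting error only.

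Calb1 and Itpr1 kept much of their level in the 13 libraries. Both are also known from neurons outside the cerebellum, in the hippocampus and striatum among others. Calb1 stood at 86.9 to 117 CPM in the 13 and at 140.5 to 354 CPM in the 15, so that its clusters were separated by a ratio of only 1.20. Itpr1 stood at 425 to 1019 CPM in the 13 and at 814 to 1612 CPM in the 15, and 6 of the 13 lay above the lowest of the 15, CD replicate 8 of 26 months. At 12 months on CD, Itpr1 was at 1178, 1467, 859, 676 and 804 CPM in replicates 1, 4, 7, 13 and 16.

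Of the granule cell genes, Cbln3 had the widest separation of all 10. It is made by cerebellar granule cells and is secreted in complexes with Cbln1, and it stood at 263, 378, 107, 0.892 and 6.85 CPM in CD replicates 1, 4, 7, 13 and 16 of 12 months. Its lowest, median and highest levels were 0.741, 322 and 408 CPM at 12 months on KD, 0.813, 66.6 and 472 CPM at 26 months on CD, and 0.489, 124 and 611 CPM at 26 months on KD. The median of the 15 libraries was 171 times that of the 13, and the lowest of the 15 was 7.26 times the highest of the 13, the largest such ratio of the 10 genes.

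Cbln1, the cerebellin that holds the parallel fibre synapse together, ran from 48.0 to 250.5 CPM in the 15 libraries and from 3.33 to 26.4 CPM in the 13. Barhl2, a homeobox factor, ran from 5.33 to 33.7 CPM against 0.183 to 2.24 CPM, and En2, a homeobox factor of the midbrain and cerebellar anlage, from 11.2 to 72.4 CPM against 0.881 to 7.98 CPM. Zic1, a zinc finger factor that granule cells share with thalamic and septal neurons and with the meninges, ran from 183 to 687 CPM against 22.6 to 145 CPM. The 4 genes thus kept different parts of their level: the ratio of the medians of the 15 and the 13 libraries was 4.20 for Zic1, 13.5 for Cbln1, 20.1 for En2 and 22.0 for Barhl2. Among the Purkinje cell genes this ratio was 52.6 for Ppp1r17, 32.8 for Car8, 17.1 for Pcp2, 2.58 for Calb1 and 1.47 for Itpr1.

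Set per kb of exon, so that genes can be compared, the median levels of the 15 libraries were 76.6 CPM per kb for Car8, 66.1 for Cbln3, 64.3 for Itpr1, 60.01 for Zic1, 50.9 for Calb1 and 45.6 for Cbln1. They were 14.9 for Ppp1r17, 10.2 for En2, 7.13 for Barhl2 and 6.52 for Pcp2. In the 13 libraries the order was led by Itpr1 at 43.9 CPM per kb, Calb1 at 19.7 and Zic1 at 14.3, with the other 7 genes at 0.283 to 3.38. The ranges of neighbouring genes overlapped in both orders. The widest step between neighbours in the 15 libraries was that from Cbln1 to Ppp1r17.

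**Figure D2:**
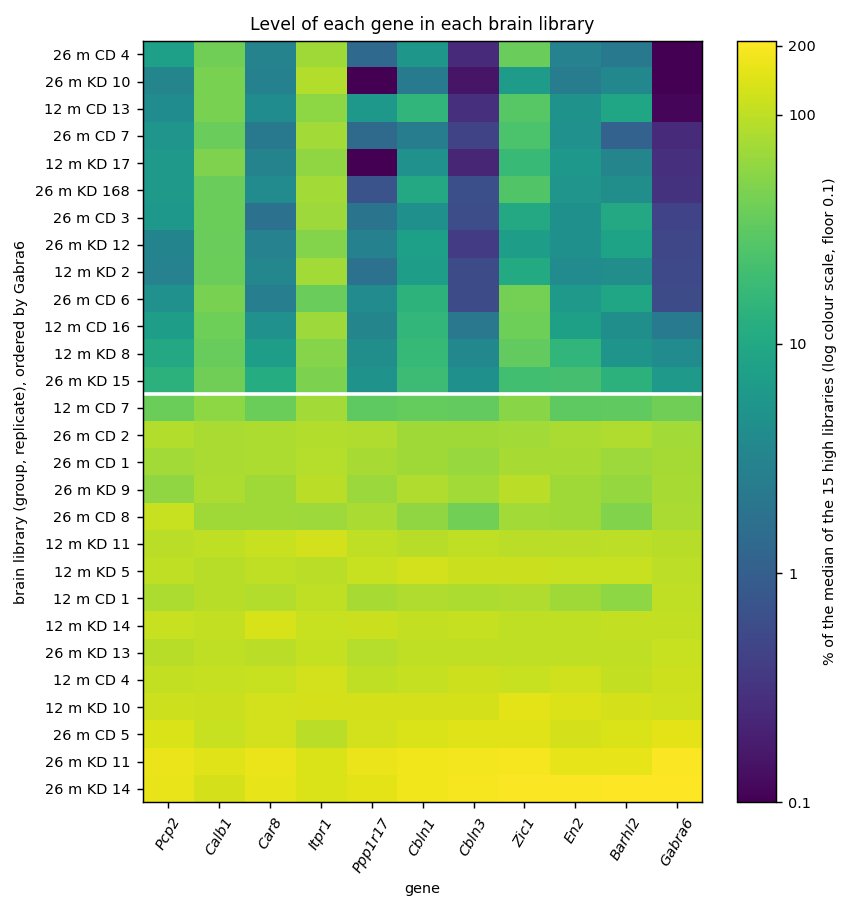
Level of each gene and of Gabra6 (x axis) in each brain library (y axis, ordered by Gabra6) as a percentage of its median in the 15 libraries high in Gabra6, on a log colour scale with a floor of 0.1%. Below the white line lie the 15 libraries, above it the 13; Calb1, Itpr1 and Zic1 keep the largest part of their level above the line, and Cbln3 the smallest of the 10 genes.

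The libraries at the boundary were graded and not all alike. CD replicate 7 of 12 months was the lowest of the 15 for 9 of the 10 genes, with 37.4% of the median of the 15 for Pcp2, 33.4% for Cbln3 and 32.3% for Barhl2. On the other side, KD replicate 15 of 26 months held 13.5% of that median for Pcp2, 11.5% for Car8 and 4.601% for Cbln3, KD replicate 8 of 12 months held 10.3%, 7.31% and 3.53%, and CD replicate 16 of 12 months held 7.08%, 4.74% and 2.13%. At the upper end stood KD replicates 11 and 14 of 26 months, with Cbln3 at 186% and 190% of the median.

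Some other markers, listed by hand for the cell types of the cerebellum, were split by the same libraries, again as a description. Of 24 further Purkinje cell genes, 10 did not overlap and were higher in the 15 libraries, among them Pvalb, Slc1a6, Rgs8, Gng13, Arhgef33, Lhx1, Homer3 and Atp2a3. Of 19 further granule cell genes, without Gabra6, which set the boundary, there were 9: Neurod1, Cdh15, Fat2, Pax6, Zic2, Zic5, Grin2c, Barhl1 and Nrep. Fat2, a giant cadherin of granule cells, went from 0.813 to 23.9 CPM in the 13 to 166 to 1073 CPM in the 15, and Slc1a6, the glutamate transporter of Purkinje cells, from 3.81 to 9.42 CPM to 11.1 to 36.6 CPM. Of 12 markers of cerebellar interneurons and glia only Gdf10, a growth factor of Bergmann glia, was without overlap, at 4.97 to 8.29 CPM against 12.3 to 86.0 CPM.

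Markers of other brain regions were described in the same way. In the lists for cortex, hippocampus, striatum, thalamus, midbrain, hindbrain, choroid plexus, meninges and myelin, 0 genes were higher without overlap and 0 lower. Over all genes tested these shares were 1.65% and 0.0544%, so that 0 in lists this short says little. The 12 cortical genes summed to 1147 to 2512 CPM in the 13 libraries, with a median of 2193, and to 763 to 2072 CPM in the 15, with a median of 1414. For the 12 striatal genes the medians were 1040 CPM in the 13 and 405 CPM in the 15, within ranges of 346 to 1791 and 271 to 1278 CPM. Thalamic genes had medians of 445 and 419 CPM, and hindbrain genes 2.01 and 25.9 CPM, with ranges of 0.0938 to 49.6 and 0.524 to 78.8 CPM. The hindbrain median was thus also higher in the 15 libraries. Midbrain genes summed to medians of 257 CPM in the 13 and 202 CPM in the 15. Within that list Slc6a3 had medians of 0.652 and 11.4 CPM, and Meis2 of 221 and 134 CPM. The part of tissue composition in the levels of the 10 genes was not tested.

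Genes that work with the 10 members were also described by the 2 kinds of library. Grid1, which encodes a glutamate receptor family member of forebrain synapses, was lower without overlap in the 15 libraries (88.0 to 102 CPM in the 13 libraries, 45.8 to 85.9 CPM in the 15). In inositol trisphosphate and calcium signalling, Homer3, a postsynaptic scaffold that binds Itpr1, Itpr3, another inositol trisphosphate receptor, and Atp2a3, a calcium pump of the endoplasmic reticulum, were higher without overlap. Homer3 went from 2.98 to 8.00 CPM in the 13 libraries to 10.1 to 36.0 CPM in the 15.

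The first comparison of the design was the one-week KD at 12 months. None of the 10 genes was called, at an adjusted p under 0.05 by the quasi-likelihood test of edgeR over all genes, where 1 gene of 22079 was called (0.00453%). At an unadjusted p under 0.05 there were also 0 of the 10, against 2.65% of all genes. DESeq2 and limma likewise called 0 of the 10. The fitted differences were above 0 for 10 of 10 genes, with a median log2 fold change of 0.45 beside -0.001 for all genes, and their standard errors ran from 0.27 to 1.52. Cbln3 averaged 207 ± 191 CPM (SD, n = 7) on KD and 151 ± 165 CPM (SD, n = 5) on CD, which is 0.45 on the log2 scale (SE 1.52, adjusted p = 1). Pcp2 averaged 7.57 ± 6.43 and 5.63 ± 5.39 CPM, a log2 fold change of 0.44 (SE 0.98), and Itpr1, the gene with the smallest error, 1082 ± 365 and 997 ± 321 CPM, a log2 fold change of 0.12 (SE 0.27). Without KD replicate 10 the difference of Zic1, 0.25 (SE 0.74) in all brains, was -0.026. The 7 KD brains held 4 high and 3 low libraries and the 5 CD brains 3 and 2. Genes of other brain regions also lay off 0 in this comparison, with 0 called in each list: the median log2 difference was 1.53 for hindbrain genes (10 of 10 above 0), 0.51 for midbrain genes (11 of 12), 0.47 for striatal genes (12 of 12) and -0.27 for cortical genes (0 of 12). The positive differences were thus not limited to the cerebellar genes.

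With the 13 low libraries left out, an alternative chosen after the values were seen that leaves 4 KD and 3 CD brains at 12 months, the errors of the 10 genes shrank to between 0.18 and 0.44. Leaving out these libraries removes the lower cluster of most of the 10 genes, so smaller errors follow from the choice itself. Again 10 of 10 differences for the one-week KD were above 0, with a median of 0.54, and 0 were called. Barhl2 had the largest at 0.78 (SE 0.42, adjusted p = 0.675), followed by Ppp1r17 at 0.70 (SE 0.35, adjusted p = 0.661). CD replicate 7, the lowest of the 15 libraries, is 1 of the 3 CD brains in this fit.

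For aging, 26 months against 12 months on CD, the 10 genes lay closest to 0. None was called, against 278 of 22079 genes (1.26%), of which 221 were higher at 26 months (1% of all tested) and 57 lower (0.258%), and 0 of 10 had an unadjusted p under 0.05, against 11.8% of all genes. The log2 fold changes ran from -0.22 to 0.18 with a median of -0.08, and 3 of 10 were above 0. Cbln3 averaged 130.4 ± 168.3 CPM (SD, n = 8) at 26 months, a fitted log2 difference of -0.22 (SE 1.46, adjusted p = 0.98). Calb1 averaged 153 ± 66.3 CPM at 26 months and 167.96 ± 74.2 CPM at 12 months, a fitted log2 difference of -0.13 (SE 0.38, adjusted p = 0.95). Without the 13 low libraries the differences ran from -0.21 to 0.44 with a median of 0.18, and the lowest adjusted p was 0.615, for Pcp2. Counts assigned to Gm10800, a predicted gene, made up 0.00046% to 0.0017% of the 12 libraries of 12 months and 0.0347% to 1.22% of the 16 of 26 months, and its part in this comparison was not tested.

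Around the 10 genes, none of the 24 Purkinje, 20 granule and 12 interneuron and glial genes was called in aging. Meningeal genes, which include a source of Zic1, fell with age in 6 of 11 tested: Fmod, Slc22a6, Ogn, Aldh1a2, Foxd1 and Col1a1. Fmod, a proteoglycan of the dura, fell by 1.92 on the log2 scale (SE 0.23, adjusted p = 1.5e-05). Zic1 itself had a fitted log2 difference of -0.08 (SE 0.72, adjusted p = 0.985).

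The one-year KD was compared between the CD and KD brains of 26 months, of which 4 and 4 were high libraries and 4 and 4 low. None of the 10 genes was called by edgeR, where 0 of 22079 genes passed (0%), nor by DESeq2 or limma, and 0 of 10 had an unadjusted p under 0.05, against 4.52% of all genes. All 10 differences were above 0, from 0.24 for Pcp2 to 0.77 for Cbln3, with a median of 0.45 beside -0.003 for all genes. Cbln3 averaged 223 ± 265 CPM (SD, n = 8) on KD and 130.4 ± 168.3 CPM on CD, which is 0.77 on the log2 scale (SE 1.29, adjusted p = 0.989). Cbln1 averaged 101 ± 105 CPM and 63.2 ± 66.4 CPM, a log2 fold change of 0.69 (SE 0.83), and Itpr1 1075 ± 408 CPM and 867 ± 217 CPM, a log2 fold change of 0.31 (SE 0.23). KD replicates 11 and 14 had the highest levels of all brains. The Pcp2 difference was -0.14 without KD replicate 11 and -0.13 without KD replicate 14, and that of Ppp1r17 was -0.031 without KD replicate 11. With limma, which weights each library, 6 of the 10 differences turned below 0. In the same comparison, again with 0 called in each list, the median log2 difference was -0.996 for hindbrain genes (0 of 10 above 0), 0.15 for striatal genes (9 of 12) and 0.055 for cortical genes (9 of 12).

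Within the 15 high libraries the one-year KD differences were again above 0 for 10 of 10 genes, with a median of 0.54 and errors of 0.17 to 0.41. Itpr1 had a fitted log2 difference of 0.48 (SE 0.17, adjusted p = 0.465), Zic1 of 0.67 (SE 0.30) and Cbln3 of 0.77 (SE 0.41, adjusted p = 0.548). None was called, among 0 called of the 21908 genes in that fit. In the 13 low libraries 9 of 10 differences were above 0, and Zic1 was at -0.88 (SE 0.50, adjusted p = 0.675). With the Gabra6 level of each library as a covariate, the median difference of the 10 genes was 0.12, with 7 above 0.

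The last comparison asked whether the one-year KD differed from the one-week KD in its difference from CD. None of the 10 genes was called, nor was any other gene (0%), and 998 genes (4.52%) had an unadjusted p under 0.05, with 0 of the 10 among them. The differences ran from -0.21 for Ppp1r17 to 0.32 for Cbln3, with errors of 0.36 to 1.97. Over the 4 comparisons in the 28 libraries, the standard errors of Cbln3, Car8 and Ppp1r17 ran from 0.997 to 1.97 on the log2 scale.

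**Figure D3:**
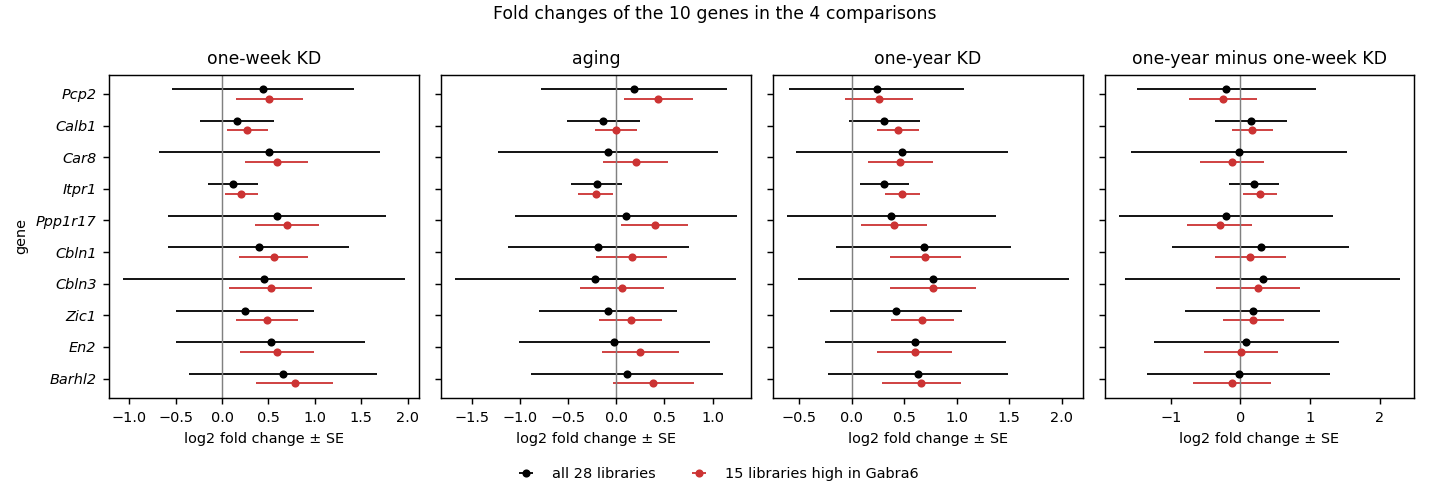
Fitted log2 fold change of each gene (points) with its standard error (bars) in the 4 comparisons, from all 28 brain libraries (black) and from the 15 high in Gabra6 (red). The red bars are shorter than the black ones throughout, and no gene was called in either fit. The fit in red leaves out the lower cluster of most of the genes, so shorter bars follow from that choice.

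Within the 15 high libraries the 10 genes varied together. After group means were removed, Pearson's r of log2(CPM + 0.1) was positive for 45 of 45 pairs, from 0.749 to 0.982 with a median of 0.926, and Spearman's rho ran from 0.761 to 0.989. All 45 passed an exact two-sided permutation test within groups, with the Benjamini-Hochberg adjusted p at most 0.0213 over the 45 pairs. Left without the 2 libraries farthest from the median of the x gene, r ran from 0.562 to 0.981. The closest pair was Calb1 and Car8 (r = 0.982, rho = 0.979, permutation p = 4.82e-05, adjusted p = 0.000197), and the loosest Pcp2 and Itpr1 (r = 0.749, rho = 0.761, permutation p = 0.0213, r = 0.562 without 2 libraries). Genes of 1 cell type were about as close to each other as to those of the other type. The median r was 0.923 among Purkinje cell genes, 0.943 among granule cell genes and 0.915 between them, and these medians were not tested against each other. How many pairs of other genes pass the same permutation test was not computed. The nearest genes outside the 10 were as close in these 15 libraries, such as Cep76 to Car8 (r = 0.988) and Pan3 to Calb1 (r = 0.987).

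Taken by age, r was positive for all 45 pairs at both ages, but fewer pairs passed. In the 7 high libraries of 12 months r ran from 0.747 to 0.996 and 21 of 45 pairs passed the exact test, in which 144 permutations give a smallest p of 0.00694, while by rho 7 passed and r fell as low as 0.112 without 2 libraries. In the 8 of 26 months r ran from 0.685 to 0.988 and 39 pairs passed, while by rho 27 passed and the lowest r without 2 libraries was 0.391. The points share their library, so anything common to a library enters every pair.

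In the 13 low libraries the pattern was different. None of the 45 pairs passed the adjusted test, in r or in rho, while 18 had an unadjusted permutation p under 0.05. All 9 pairs with Itpr1 had a negative r, down to -0.772 with Cbln1 (rho = -0.681, adjusted p = 0.0864, r = -0.573 without 2 libraries), and so had 8 of 9 pairs with Calb1. Of the 28 pairs among the other 8 genes 27 were positive, led by Cbln3 and En2 (r = 0.904, rho = 0.868, adjusted p = 0.0781, r = 0.76 without 2 libraries). CD replicate 6 of 26 months shows both sides: it had the lowest Itpr1 of all brains at 425 CPM and the highest Zic1 of the 13 at 145 CPM, with the lowest cortical sum of the 13 at 1147 CPM and the highest thalamic sum at 813 CPM. The difference in correlation between the 2 kinds of library was not tested.

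**Figure D4:**
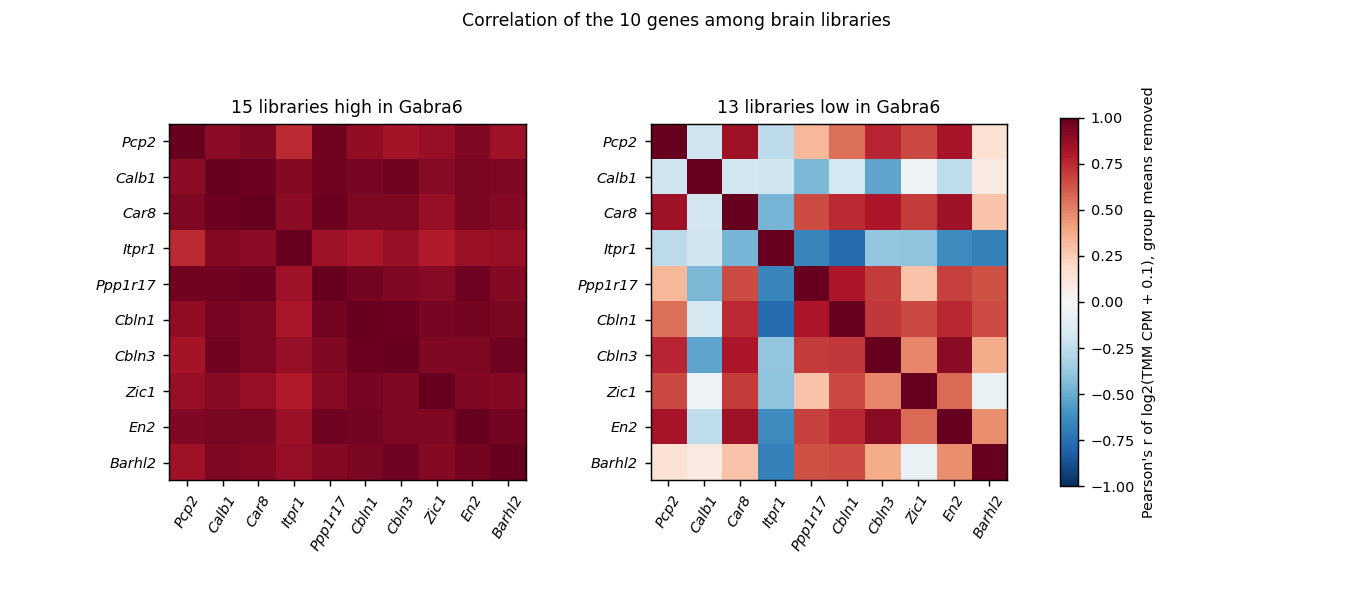
Pearson's r between each pair of the 10 genes, from log2(TMM CPM + 0.1) with group means removed, in the 15 libraries high in Gabra6 and in the 13 low. On the left every pair is positive; on the right the rows of Calb1 and Itpr1 are negative, except for Calb1 with Barhl2.

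Relative to Cbln3, Pcp2, Ppp1r17, Car8 and Cbln1 stayed within a narrow range in 14 of the 15 libraries. Pcp2 stood at 3.004 to 4.58 CPM per 100 CPM of Cbln3 in these 14, but at 10.1 in CD replicate 8 of 26 months. In the same library Ppp1r17 stood at 16.0 per 100 CPM of Cbln3, against 6.63 to 9.75 in the others, Car8 at 159.9 against 76.0 to 115, and Cbln1 at 61.4 against 39.3 to 50.5. Gabra6 was also high there against Cbln3, at 89.1 where the others had 40.6 to 56.3. Pcp2 per 100 CPM of Car8, a ratio of 2 Purkinje cell genes, was 6.30 in this library and 3.37 to 4.43 in the others.

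**Figure D5:**
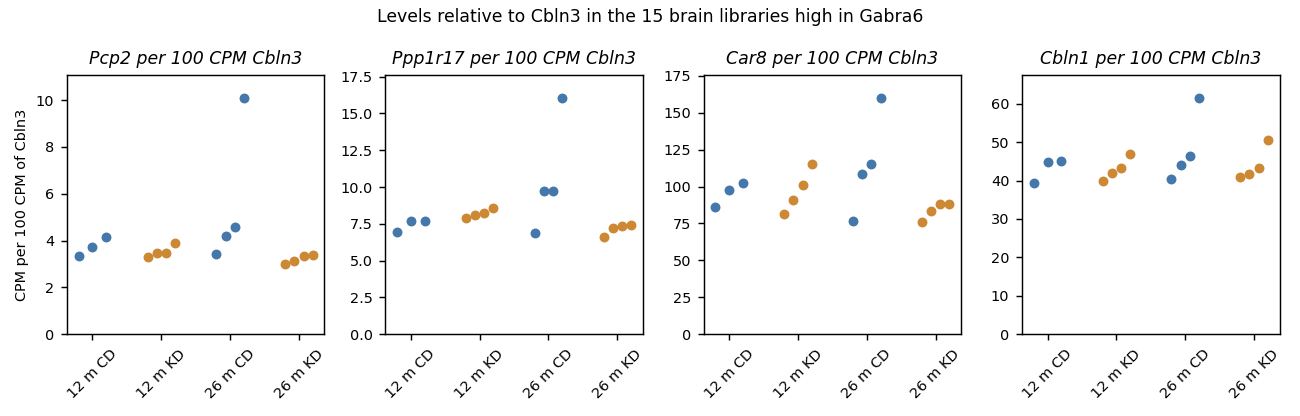
Level of Pcp2, Ppp1r17, Car8 and Cbln1 per 100 CPM of Cbln3 (y axis, from 0) in the 15 libraries high in Gabra6, by group (x axis), 1 point per library. CD replicate 8 of 26 months is the highest point in each panel.

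The genes most like each member were looked up among all tested genes with a mean log2 CPM above 0, by Pearson's r over the 15 high libraries, as a description with no test. Cbln3 was nearest to Fat2 (r = 0.996), Atp2a3 (r = 0.992) and Mmp24 (r = 0.991), and Cbln1 to Pax6 (r = 0.989), Cnksr3 and Rps6ka1. Zic1 was nearest to its relative Zic2 (r = 0.986), and En2 to Wnt7a (r = 0.978), Dao, the D-amino acid oxidase of cerebellar astrocytes, and Gdf10. Ppp1r17 was nearest to Cep76, Tspan9 and Dao, Pcp2 to Sphkap (r = 0.975), Ppp1r17 and Casq2, and Car8 to Cep76, Calb1 and Ppp1r17. Calb1 was nearest to Pan3, Cep76 and Bcl2l15, Barhl2 to Tmem266, Aqp6 and Shf, and Itpr1 to Pcdhga11 (r = 0.982), Mir1931 and Ahctf1. In the 13 low libraries the nearest genes were others for most members: Itpr1 was nearest to Rab11fip4, Rimbp2 and Oprd1, Zic1 to Adra2b, Zic2 and Gbx2, a factor of the thalamus, while Cbln3 kept Fat2 and had Gabra6 as its nearest (r = 0.967).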

How the data were processed

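RNA of 28 whole brains and 16 livers was sequenced after removal of ribosomal RNA. The authors trimmed reads with Trimmomatic, mapped them on GRCm38 by STAR and counted genes by RSEM, with versions not given in the sources used here. The authors deposited these as raw counts, with no normalization. All 28 brains entered one fit with 4 groups in edgeR 4.0.16 (R 4.3.3), with filterByExpr, TMM and the quasi-likelihood test, with Benjamini-Hochberg adjustment over all 22079 genes tested. All 10 genes passed the filter. Genes with an adjusted p under 0.05 count as called. Group values are the mean and SD, and floors and intervals cover counting error only. Symbols, positions and exon lengths are from GENCODE vM21, matched for 54409 of 54446 identifiers. The study states separate mice for the 26-month brains. For those of 12 months the text used here does not, and p-values there measure the spread between libraries, which may be technical.

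The 10 genes, the lists and the tests were chosen with earlier results of these data known. Named genes are the 10 members in every comparison, genes of the other lists with an adjusted p under 0.05 or among the 3 smallest p-values, and the 3 genes with the highest r to each member; of those with small p-values that were not called, few are printed. Genes without overlap between the 15 and 13 libraries were named after their values were seen. Correlations had been planned over all 28 brains. Since these fall into separate clusters, they are given within each cluster, with group means removed and exact permutation within groups. Alternatives were DESeq2 1.42.0, limma 3.58.1, RLE factors, total counts, other filters, each library left out in turn, the pair of groups by itself, pairing by replicate number for aging, and, added after seeing the data, fits by kind of library and with Gabra6 as covariate. The test was checked on simulated data. The simulated counts did not hold the 2 kinds of library, so this check does not cover the spread of most of the 10 genes. Python 3.11.15, pandas 2.3.3, numpy 2.4.6, scipy 1.17.1 and matplotlib 3.10.9 were used. Promoters of Calb1, Car8, Itpr1, Ppp1r17, Cbln1 and En2 are not reported here, nor are some genes of the other lists.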

Additional observations from a re-analysis of the deposited data

Results flagged for a closer look

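One of 40 sets of values, 10 genes in 4 groups, held a library far from the rest by the gap to its neighbour: Itpr1 in CD replicate 6 of 26 months, at 425 CPM. Chance gives such a gap in about 1 of 20 sets if the values of a set come from 1 normal distribution. For genes without overlap between both kinds of library, each group held an upper and a lower cluster, and that rate does not apply.

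In the livers, which no comparison above uses, all 10 genes exceeded, in at least 1 library, the 3 counts that a count of 0 allows. Itpr1 reached 266 CPM (median 210.4) and Car8 129 CPM (median 98.8). The highest liver levels of the others were 4.597 CPM (40 counts) for Cbln3, 3.68 for Zic1, 2.93 for Calb1, 2.39 for Barhl2, 1.85 for Cbln1, 1.72 for Ppp1r17, 1.45 for Pcp2 and 0.919 for En2 (8 counts). Their liver medians were lower, from 0 for Ppp1r17 and Barhl2 to 1.70 CPM for Cbln3. The maxima of Cbln3, Zic1, Ppp1r17 and En2 were in KD liver replicate 10, those of Calb1, Barhl2 and Cbln1 in KD liver replicate 11. In these 2 livers Gm10800 made up 2.39% and 2.27% of counts, against 0.00173% in KD liver replicate 13. Its part in these levels was not tested. Liver CPM are scaled by total counts alone and were not tested against the brain.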

How the results depend on the processing

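In no alternative was any of the 10 genes called, nor any of the 56 other Purkinje, granule, interneuron and glial genes. Of 1070 alternative values of the 40 log2 fold changes, 917 kept the sign of the reported value and 153 did not, with 0 called. The cause was not tested. Asking for at least 10 counts in each brain left no value for Pcp2, Ppp1r17, Cbln3, En2 and Barhl2.

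Without the 15 libraries high in Gabra6 the log2 fold change was, in the one-week KD, -0.062 for Calb1, -0.027 for Itpr1, -1.11 for Ppp1r17, -0.69 for Cbln1, -0.73 for Zic1 and -0.69 for Barhl2, in aging -1.09 for Ppp1r17 and -0.34 for Barhl2, in the one-year KD -0.88 for Zic1, and in the difference of the KD effects 1.09 for Car8, 1.15 for Ppp1r17, -0.15 for Zic1 and 1.13 for Barhl2. Without the 13 low libraries it was, in aging, 0.20 for Car8, 0.16 for Cbln1, 0.061 for Cbln3, 0.15 for Zic1 and 0.25 for En2. With the Gabra6 level as covariate it was, in the one-week KD, -0.21 for Cbln1 and -0.18 for Zic1, in aging 0.007 for Calb1, 0.014 for Cbln3, 0.15 for Zic1 and 0.24 for En2, in the one-year KD -0.27 for Pcp2, -0.28 for Ppp1r17 and -0.32 for Zic1, and in the difference -0.13 for Cbln3, -0.14 for Zic1 and -0.23 for En2. With limma it was, in aging, 0.004 for Calb1, -0.015 for Ppp1r17, 0.20 for En2 and -0.037 for Barhl2, in the one-year KD -0.70 for Pcp2, -0.13 for Car8, -1.10 for Ppp1r17, -0.40 for Cbln3, -0.52 for Zic1 and -0.22 for En2, and in the difference -0.24 for Calb1, -0.086 for Itpr1, -0.27 for Cbln1, -1.29 for Cbln3, -0.65 for Zic1 and -1.10 for En2. With total counts alone En2 was at 0.025 in aging.

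With one library left out at a time, Zic1 ran from -0.026 to 0.55 in the one-week KD, and Pcp2 from -0.14 to 0.57 and Ppp1r17 from -0.031 to 0.75 in the one-year KD. In aging the ranges were -0.14 to 0.72 for Pcp2, -0.30 to 0.10 for Calb1, -0.47 to 0.48 for Car8, -0.27 to 0.67 for Ppp1r17, -0.67 to 0.27 for Cbln1, -0.89 to 0.47 for Cbln3, -0.41 to 0.22 for Zic1, -0.41 to 0.70 for En2 and -0.34 to 0.80 for Barhl2. In the difference of the KD effects they were -0.74 to 0.12 for Pcp2, -0.089 to 0.31 for Calb1, -0.59 to 0.37 for Car8, -0.78 to 0.15 for Ppp1r17, -0.17 to 0.78 for Cbln1, -0.37 to 0.99 for Cbln3, -0.17 to 0.50 for Zic1, -0.65 to 0.47 for En2 and -0.71 to 0.43 for Barhl2.

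A replicate block of CD libraries 1, 4 and 7 of both ages called 0 of the 10 genes in aging, with -1.80 for Pcp2, -2.31 for Ppp1r17 and -2.11 for Barhl2. In this block libraries 1, 4 and 7 of the younger age were all high in Gabra6. Of the older age, library 1 was high and libraries 4 and 7 were low, so age and kind of library cannot be told apart in these values. The brains of the 2 ages are of different mice, whatever their numbers. The deviations of same-numbered libraries correlated at -0.23 to 0.19 over 22079 genes, and 0 of 3 libraries were closest to their own number. With 3 pairs that hold both kinds of library, these values cannot decide whether the numbers have any other meaning. Over all genes, aging called 278 in the reported fit, 13 with the block, 14 and 54 without the high and low libraries, 391 with Gabra6 as covariate, 845 by DESeq2, 401 by limma, 193 without a filter, 175 with at least 10 counts in each brain and 121 in the compared groups alone. Of the 45 correlations, 45 passed in the 15 libraries, 0 in the 13, 21 in the 12-month brains alone and 39 in the 26-month brains alone.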
